A study of Mus musculus with 8 samples.

Results

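The 9 genes described here are Rsph9, Rsph1, Rsph4a, Ccdc153, Tmem212, Rarres2, Dynlrb2, Mia and Cfap126, which belong to motile cilia or mark ependymal cells, out of 19505 genes named on the array. They were taken from a fixed list of symbols, and that list was chosen from earlier results of these same arrays, in which mice with impaired memory had been set against mice with intact memory. The difference between those groups in the 9 genes is therefore given as a description, without a test. Each gene is read from its brightest probe set. All 8 mice were B6.Cg-Tg(APPswe)E1-2Dbo/J animals, with an amyloid precursor protein transgene, were 18 to 20 months old and had gone through the Morris water maze before the hippocampus was taken. The labels call memory impaired in 4 mice and intact in 4, with 1 array per mouse. They do not say how that status was set or what drives the transgene, and mice without the transgene were not analysed here. Expression values are log2 intensities from RMA, robust multi-array averaging, on which a step of 1 doubles the level. The number of arrays limits the precision.

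Ependymal cells line the brain ventricles, which the hippocampus borders, and each carries a tuft of motile cilia that move cerebrospinal fluid. A motile cilium is built on an axoneme, a ring of microtubule doublets around a central pair. Dynein arms on the doublets generate sliding, the nexin-dynein regulatory complex limits it, and radial spokes reach from the doublets to the central pair and pass signals that coordinate the beat. Transcription of these genes is driven by Foxj1 and by the RFX factors, which bind an inverted repeat called the X-box. Foxj1 was not analysed here.

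Promoter sequences are shown for 3 of the genes, 2 that hold the letters GTTGCC and Rsph9, the gene whose groups were apart. RefSeq windows from 250 bases before to 50 bases after the start site were held for 6 of the 9 genes in assembly GRCm38.p6. The letters GTTGCC, part of the X-box repeat, were searched on both strands, and capitals mark them below. They were found in Ccdc153 (chr9:44240427-44240726, plus strand), from base -152 relative to the start site, and in Dynlrb2 (chr8:116504765-116505064, plus strand), from base -51. The windows of Tmem212, Mia and Cfap126 held no match, nor did that of Rsph9 (chr17:46144151-46144450, minus strand). Other forms of the X-box were not searched, so that a window without GTTGCC may still hold an X-box.
Ccdc153: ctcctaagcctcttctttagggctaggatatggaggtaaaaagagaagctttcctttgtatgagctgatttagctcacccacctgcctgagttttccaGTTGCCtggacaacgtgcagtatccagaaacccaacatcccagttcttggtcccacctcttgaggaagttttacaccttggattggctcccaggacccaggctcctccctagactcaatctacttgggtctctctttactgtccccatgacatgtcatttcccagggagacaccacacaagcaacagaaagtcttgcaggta
Dynlrb2: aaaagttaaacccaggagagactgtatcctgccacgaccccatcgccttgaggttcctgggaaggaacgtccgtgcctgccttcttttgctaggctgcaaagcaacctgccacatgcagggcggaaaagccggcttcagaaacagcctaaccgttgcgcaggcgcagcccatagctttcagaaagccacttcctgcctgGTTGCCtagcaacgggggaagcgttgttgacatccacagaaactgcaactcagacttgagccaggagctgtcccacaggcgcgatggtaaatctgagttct
Rsph9: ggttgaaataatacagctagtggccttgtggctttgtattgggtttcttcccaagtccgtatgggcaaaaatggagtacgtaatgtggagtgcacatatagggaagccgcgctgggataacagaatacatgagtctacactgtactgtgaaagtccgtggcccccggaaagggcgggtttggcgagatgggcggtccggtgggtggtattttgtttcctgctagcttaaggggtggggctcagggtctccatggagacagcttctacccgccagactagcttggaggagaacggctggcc

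Of 8 windows of the 6 genes, 2 held GTTGCC, or 25%. Over all 32851 windows the share was 12.5%, and over 116 windows of 103 other genes of cilia it was 45.7%. The letters GTAAACA, a forkhead core that neither contains GTTGCC nor lies within it, were searched on both strands too and were in 0 of the 8 windows, in 2.59% of the windows of the other cilia genes and in 3.65% of all windows. A match is a description of the letters only.

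The label of the group was set against the signal on the arrays. Probe sets for introns, which serve as a background on this array, had a 75th percentile of 6.30 over their means. Rsph9, Rsph4a, Ccdc153 and Cfap126 lay above it in 8 of 8 mice, Dynlrb2 in 5, Mia in 3 and Tmem212 in 1. Rsph1 and Rarres2 lay below it in every mouse, and their means over the arrays, 5.23 and 5.09, were also under 5.33, the cutoff for the fit. Thus 7 of the 9 genes passed that filter. Among 22 further ependymal markers, 16 passed the same filter and 9 lay above the intron level. By construction the filter kept 14628 of all 19505 genes, and 11995 of all genes lay above the intron level. The counts that passed the filter are near the share of all genes, so that nothing is read from them. The further markers ranged in mean from 3.92 for Zfp474 to 10.9 for Pltp. The 95th percentile of the intron controls was 7.92, and every value of the 9 genes in the 8 mice lay below it, the closest being Rsph4a in intact mouse 4. Markers of hippocampal neurons were above the filter in 8 of 8 cases and above the intron level in 6, with Neurod6 and Prox1 the brightest.

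In 2 mice, markers of neighbouring tissue stood apart. The mean deviation of 14 choroid plexus markers from their level over all mice reached -0.96 in impaired mouse 3 and -0.95 in mouse 3 of the intact group, against -0.37 to 0.91 in the other 6 mice. All 14 passed the filter, and their summed level was 11.1 to 13.6 in the impaired and 11.5 to 14.1 in the intact group. For 12 thalamus markers it was -1.32 in intact mouse 3, against -0.19 to 0.46 in the other 7. Results below are given with and without these mice where they rest on them. In bulk tissue, fewer cells of a type and less RNA per cell cannot be told apart.

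Of the radial spoke genes, Rsph9 encodes a protein of the spoke head, the part that faces the central pair. Its expression was 7.23, 7.18, 7.06 and 7.25 in impaired mice 1 to 4 and 7.43, 7.54, 7.74 and 7.50 in intact mice 1 to 4. Every impaired value lay below every intact value, and intact mouse 3 was the highest of all. The group means were 7.18 ± 0.085 (SD, n = 4) and 7.55 ± 0.13 (SD, n = 4), or 1.29-fold less in the impaired mice. That is a log2 difference of -0.37 with a standard error of 0.090. The difference was -0.31 without intact mouse 3 and -0.27 without both mice numbered 3. The groups did not overlap in this direction for 213 of the 14628 genes tested, or 1.46%, and Rsph9 was 1 of the 9 genes of the group to show this. The gene was put on the list with this difference known, so that nothing is read from the count.

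Rsph9 shares part of its locus with Mrps18a, a gene for a mitochondrial ribosomal protein, in the RefSeq annotation. Mrps18a was 7.83, 7.91, 7.66 and 7.81 in the impaired and 7.75, 7.46, 7.85 and 7.81 in the intact mice. Its groups overlapped, and its difference was 0.083 (standard error 0.10), of the opposite sign.

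Rsph4a encodes a second spoke head protein. It stood at 7.55, 7.74, 7.19 and 7.48 in impaired mice 1 to 4 and at 7.69, 7.83, 7.46 and 7.92 in intact mice 1 to 4. Impaired mouse 3 was the lowest, intact mouse 3 the next lowest, and the groups overlapped. The difference was -0.24 (standard error 0.13), from 7.49 ± 0.23 (SD, n = 4) in the impaired to 7.72 ± 0.20 (SD, n = 4) in the intact group, and it was -0.14 without impaired mouse 3. Rsph1, a spoke head protein with MORN repeats, was 5.14, 4.88, 5.28 and 5.36 in the impaired and 4.98, 5.37, 5.07 and 5.75 in the intact mice. These values span the filter level, with 3 of 8 above it, and the groups overlapped. The difference of -0.13 (standard error 0.17 in the fit without a filter) was within the spread of either group and turned to 0.020 without intact mouse 4, which had the highest value.

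Other axonemal and cilia proteins were also dim. Ccdc153, a coiled-coil protein of the nexin-dynein regulatory complex, was 6.52, 6.81, 6.33 and 6.78 in impaired mice 1 to 4 and 6.63, 6.86, 6.60 and 6.72 in intact mice 1 to 4. The groups overlapped, and only impaired mice 1 and 3 lay below the lowest intact value. Its difference was -0.095 (standard error 0.12) and came to -0.0026 without impaired mouse 3. Dynlrb2, a light chain of cytoplasmic and ciliary dynein, was 6.39, 6.29, 6.11 and 6.32 in the impaired and 6.63, 6.57, 6.27 and 6.39 in the intact mice. Here intact mouse 3 lay within the impaired range, intact mouse 4 was level with the highest impaired mouse, and the other intact mice were above. The means differed by -0.19 (standard error 0.10). Its close relative Dynlrb1, which is used throughout the body, differed by 0.15 (standard error 0.087) in the opposite direction.

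Cfap126, also called Flattop, helps to place basal bodies in multiciliated cells. It ranged more widely than any other of the 9 genes, with 7.34, 7.03, 6.72 and 7.70 in impaired mice 1 to 4 and 7.61, 7.65, 6.50 and 7.77 in intact mice 1 to 4. The lowest values were those of the mice numbered 3 in both groups, and the groups overlapped over nearly their whole range. The difference was -0.19 with a standard error of 0.28. It was -0.48 without intact mouse 3 and -0.025 without impaired mouse 3. With both of these mice left out it was -0.32, and with the choroid plexus markers as a covariate it was 0.13, of the opposite sign.

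Tmem212, a transmembrane protein used as an ependymal marker, was 5.87, 6.03, 5.56 and 6.10 in impaired mice 1 to 4 and 5.84, 6.30, 5.87 and 6.22 in intact mice 1 to 4. Impaired mouse 3 was again the lowest and the groups overlapped. The difference was -0.17 (standard error 0.14), and it was -0.057 without impaired mouse 3. Of the secreted proteins, Mia was 6.40, 6.04, 5.92 and 6.37 in the impaired and 6.21, 6.32, 6.16 and 6.27 in the intact mice. The impaired mice held both the highest and the lowest values, with SDs of 0.24 and 0.068 in the impaired and intact groups (n = 4 each). Its difference of -0.057 (standard error 0.12) turned to 0.031 without impaired mouse 3. Rarres2 encodes chemerin, a chemoattractant. It was 5.20, 5.20, 4.98 and 4.97 in the impaired and 5.07, 4.95, 5.17 and 5.19 in the intact mice, a range of 0.25 over all 8 arrays. Its difference was -0.0075 (standard error 0.098 in the fit without a filter). The chemerin receptors Cmklr1, Gpr1 and Ccrl2 differed by 0.080, -0.13 and -0.17 (standard errors 0.18, 0.17 and 0.12). With 1 mouse left out they ran from -0.049 to 0.20, from -0.24 to -0.0057 and from -0.27 to -0.084. Gpr1 and Ccrl2 lay above the intron level in 0 of 8 mice and Cmklr1 in 7.

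**Figure D1:**
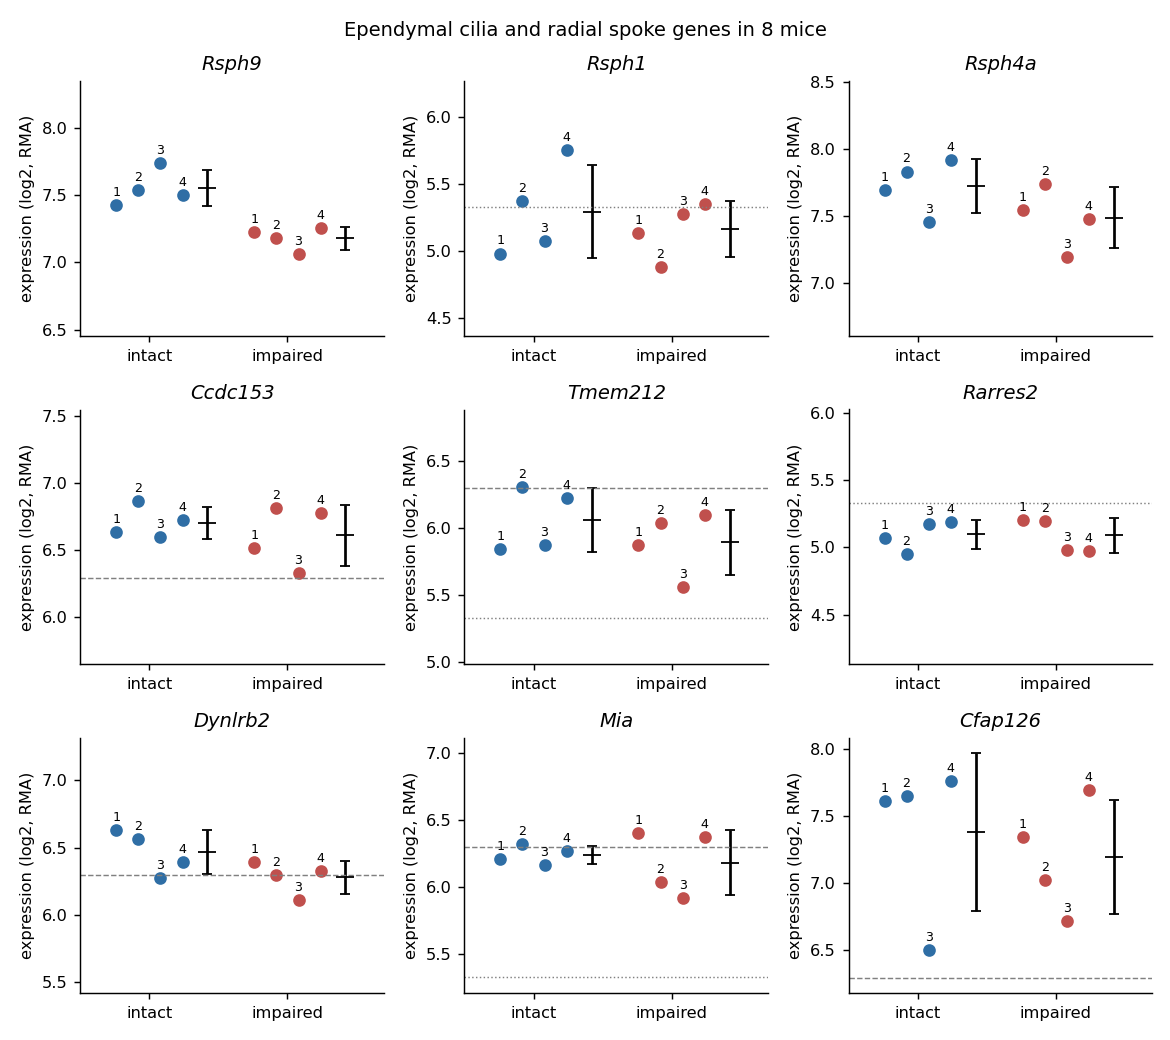
Expression of each of the 9 genes (log2, RMA) in the 4 intact and 4 impaired mice. Points are single mice with their number, the bar beside each group is the mean ± SD (n = 4), the dashed line is the 75th percentile of the intron controls (6.30) and the dotted line the filter level (5.33), where they fall in the panel. In the panel of Rsph9 the groups are apart, while in the other 8 panels they overlap and mouse 3 of the impaired group is often the lowest.

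All 9 genes had a lower mean in the impaired group, with a median difference of -0.17. Over the 14628 genes tested the median difference was -0.0083 and 52.9% were lower. The 9 genes were proposed with this contrast in view and share mice, so that neither the count nor the median is evidence of a shift. The count was 7 of 9 without impaired mouse 3, with a median of -0.057, and 7 of 9 without both mice numbered 3, with a median of -0.19. The median was -0.096 without intact mouse 2 and -0.090 without intact mouse 4. With the choroid plexus markers as a covariate the count was also 7 of 9, with a median of -0.091. In that fit Rsph9 differed by -0.40, Rsph4a by -0.15 and Dynlrb2 by -0.10, while Mia and Cfap126 were higher in the impaired group, by 0.018 and 0.13. Choroid plexus markers were lower in the impaired group in 14 of 14 cases, with a median of -0.48, and thalamus markers were higher in 11 of 12, with a median of 0.32. None of these markers passed the test. Beyond that fit, the part of the plexus in the differences of the 9 genes was not tested, nor was that of the thalamus.

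**Figure D2:**
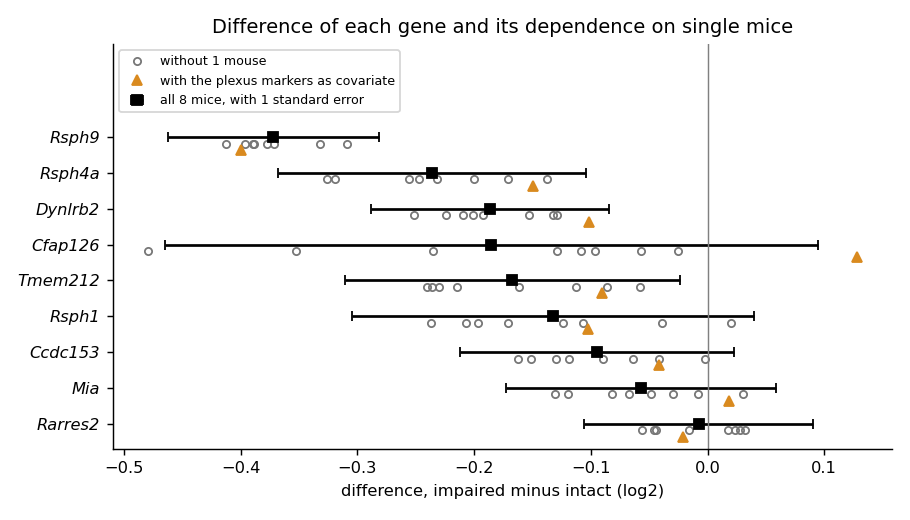
Difference of each gene, impaired minus intact (log2). Black squares are the fit on all 8 mice with 1 standard error, open circles the fits without 1 mouse and triangles the fit with the choroid plexus markers as a covariate. Rsph9 stays between -0.41 and -0.31 when any 1 mouse is left out, whereas Mia, Rsph1 and Rarres2 reach both sides of 0.

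From mouse to mouse, 6 of the 9 genes varied together by Pearson's r when all 8 mice were used. After the mean of each group was taken off, Tmem212 correlated with Ccdc153 at r = 0.90 (Spearman's rho = 0.76) and with Rsph4a at r = 0.80 (rho = 0.69), over 8 mice. Cfap126 correlated with Dynlrb2 at r = 0.74 (rho = 0.48) and with Mia at r = 0.68 (rho = 0.67). Over the 15 pairs among Rsph4a, Ccdc153, Tmem212, Dynlrb2, Mia and Cfap126 the median r was 0.60, against 0.34 over all 36 pairs. The 6 genes were singled out after these values were seen, and all values of a mouse come from 1 array, so that the correlations are a description and have no p. Over all 8 mice, Rsph9 was at r = -0.076 (rho = 0) with the mean of the other 8 genes, and Rarres2 and Rsph1 were at -0.085 (rho = -0.12) and 0.29 (rho = 0.48). Dynlrb2, among the 6, was at r = 0.54, but its rho of 0.29 was below that of Rsph1.

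Which genes varied together depended on impaired mouse 3 and intact mouse 3. Impaired mouse 3 had the lowest value of the 8 mice for 6 of the 9 genes, and intact mouse 2 was among the highest 2 mice for 6. Intact mouse 3 had the lowest value for 1 of the 9 genes, Cfap126. Without the mice numbered 3, which lay farthest from the median, the correlation with the mean of the other 8 genes was -0.023 for Rsph4a, 0.14 for Ccdc153, -0.68 for Dynlrb2 and 0.33 for Cfap126 (n = 6). Before, these values had been 0.75, 0.67, 0.54 and 0.75. It was 0.67 for Tmem212 and 0.39 for Mia without those mice, against 0.85 and 0.70 with them. For genes outside the 6 it went up, to 0.51 for Rsph9 and 0.77 for Rsph1, the highest of all 9, while Rarres2 was at -0.39. The same mice had the lowest plexus markers. In intact mouse 3, Ttr, the thyroid hormone carrier of the choroid plexus, stood at 10.56, and Folr1, its folate receptor, at 5.89, while Cfap126 was at 6.50. In impaired mouse 3, Ttr stood at 9.79 and Folr1 at 5.23. Kl, which encodes klotho and is also a plexus gene, was at 7.60 and 7.66 in these impaired and intact mice, against 7.36 in impaired mouse 2 and 8.20 to 9.23 in the other 5 mice.

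**Figure D3:**
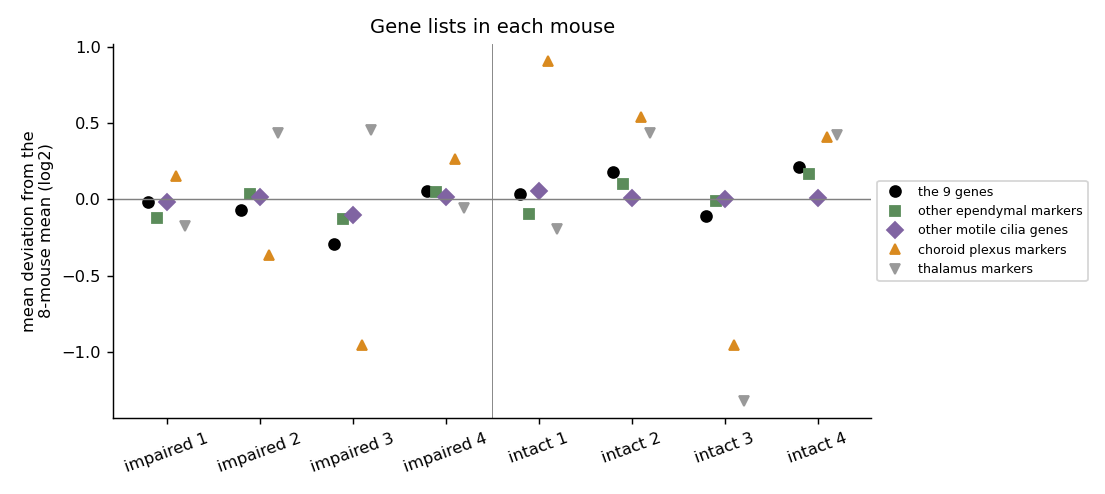
Mean deviation of 5 gene lists from their level over all 8 mice (log2), by mouse. The plexus markers (triangles pointing up) are lowest, at -0.96 and -0.95, in the mice numbered 3. There the mean of the 9 genes (black circles) is also lowest, at -0.29 in impaired and -0.11 in intact mouse 3. In intact mouse 3, Cfap126 alone of the 9 genes had its lowest value, 6.50, and Rsph9 had its highest, 7.74. The other motile cilia genes (diamonds) span less but are also lowest in impaired mouse 3, at -0.10 against -0.018 to 0.056 in the other 7 mice.

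Genes outside the group that resembled it most were sought by their correlation with the mean of the 9 genes, again with each group's mean taken off. The 6 highest over 8 mice were Ppa2, a mitochondrial pyrophosphatase (r = 0.98, rho = 1.00), Trim75, Fbxo36, Zg16, Ttc36 and Tatdn1, with r down to 0.96 and rho down to 0.88. None of these 6 was on a list of cilia genes or ependymal markers. Trim75 and Zg16, with means of 5.45 and 5.70, were under the intron level of 6.30. Of 14621 genes compared, 45 had r of 0.9 or more. With the group means left in, only Ppa2 of the 6 had r of 0.9 or more, at 0.96, and without the mice numbered 3, 4 of the 6 had (n = 6 mice). Among 92 other cilia genes compared, Hydin, of the central pair, was the highest at 0.91 and the only gene at 0.9 or more. Hydin lay above the intron level in 0 of 8 mice. The median r of the 92 was 0.025, against 0.032 over all genes.

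The rest of the cilium was then compared between the groups. Of 138 other cilia genes on 9 lists, 118 were named on the array and 92 passed the filter. None of them passed the test (limma, Benjamini-Hochberg over all genes, adjusted p from 0.961 to 0.998), and of all 14628 genes 0 passed, or 0%. Of all genes 685 had an unadjusted p under 0.05, and 1 passed when limma's prior followed intensity and was made robust. At an unadjusted p under 0.05, 6 of the 92 were lower and 1 was higher, where 2.52% of all genes were lower and 2.17% higher. In all, 48 of 92 were lower and 44 higher, a share of 52.2% lower beside 52.9% over all genes, and the median difference was -0.017 beside -0.0083. The number of the 92 with an unadjusted p under 0.05 was 3 without impaired mouse 3, 4 without intact mouse 1 and 2 without intact mouse 2. It was 8 without impaired mouse 2 and 10 without impaired mouse 4. Over all genes the number in these fits was, in the same order, 534, 486, 656, 775 and 936, beside 685 with all mice. The groups were apart for 1 of the 92, Ift43, which was lower, a share near the 1.46% of all genes.

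Among 10 other radial spoke genes, 5 were lower and 5 higher, with a median of 0.0019. Rsph6a, the relative of Rsph4a known from sperm, had the smallest p, at 5.31, 5.75, 5.90 and 5.70 in the impaired and 5.85, 5.90, 6.02 and 6.04 in the intact mice. Its groups overlapped and its difference was -0.29 (standard error 0.12; adjusted p = 0.961 by limma). Cyb5d1 differed by -0.18 and Rsph3a, at the spoke's stalk, by 0.14. Without impaired mouse 1 the difference of Rsph6a was -0.17, and the gene lay above the intron level in 0 of 8 mice.

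All 4 central pair genes tested were lower, with differences from -0.22 to -0.024 and a median of -0.11. Hydin differed by -0.22 (standard error 0.12), Cfap74 by -0.12 and Spag6l by -0.11. Without impaired mouse 3 Hydin was at -0.13, without impaired mouse 1 Cfap74 was at -0.020, and without impaired mouse 2 Spag6l was at -0.010. Genes that assemble dynein arms were lower in 7 of 9 cases with a median of -0.14, among them Dnaaf2 at -0.24, Spag1 at -0.18 and Cfap300 at -0.14. The mean deviation of that list was -0.24 in impaired mouse 3 and -0.049 to 0.14 in the other 7 mice. Without impaired mouse 3, Dnaaf2 was at -0.090 and Cfap300 at -0.064, and without both mice numbered 3 Spag1 was at -0.11. Both Hydin and Dnaaf2 lay above the intron level in 0 of 8 mice. The dynein arms themselves split evenly, 5 lower and 5 higher, with Dnah9 at -0.26 and Dnah7a and Dnah2 at 0.26 and 0.23. None of these 3 lists held a gene that passed the test.

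In the list of the nexin-dynein regulatory complex, to which Ccdc153 belongs, and of the proteins that set axonemal repeats, 6 of 10 genes were lower. Drc7 differed by -0.61 (standard error 0.24; adjusted p = 0.961 by limma) and lay above the intron level in 1 of 8 mice. It stood at 5.78, 5.38, 4.84 and 6.03 in impaired mice 1 to 4 and 6.43, 6.18, 5.67 and 6.19 in intact mice 1 to 4, and again the lowest value of each group was that of mouse 3. Without impaired mouse 3 its difference was -0.38, and without both mice numbered 3 it was -0.54. Tcte1 differed by -0.34, while Drc1 was higher by 0.25. The former lay above the intron level in 0 of 8 mice and the latter in 8. Tektins and inner doublet proteins had a median of 0.048, with Mns1 at -0.27, 1700007K13Rik at -0.30 and Nme7 at 0.19. Without impaired mouse 3, 1700007K13Rik was at -0.15. Mns1 lay above the intron level in 3 of 8 mice.

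The regulators of multiciliation gave no lower values as a list, with 2 of 6 lower and a median of 0.086. Rfx3 was 10.06 ± 0.13 (SD, n = 4) in the impaired and 10.21 ± 0.16 (SD, n = 4) in the intact group, a difference of -0.15 (standard error 0.10), and Rfx2 differed by 0.047 (standard error 0.091). Cdc20b and Ccno differed by 0.16 and 0.13, and Ccno ran from 0.018 to 0.18 when 1 mouse was left out. Ccno lay above the intron level in 0 of 8 mice. Intraflagellar transport, which carries cargo along primary and motile cilia alike, was lower in 7 of 21 genes with a median of 0.032. Kif9 differed by -0.44, Ift43 by -0.21 and Ift88 by -0.20. Kif9 lay above the intron level in 1 of 8 mice, and its difference was -0.21 without impaired mouse 1. Genes of the primary cilium and the BBSome, which neurons and astrocytes also express, were lower in 9 of 14 cases with a median of -0.023. Cep164, a protein of the basal body appendages, differed by -0.23 (standard error 0.091), Ttc8 by -0.19 and Bbs4 by -0.091.

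**Figure D4:**
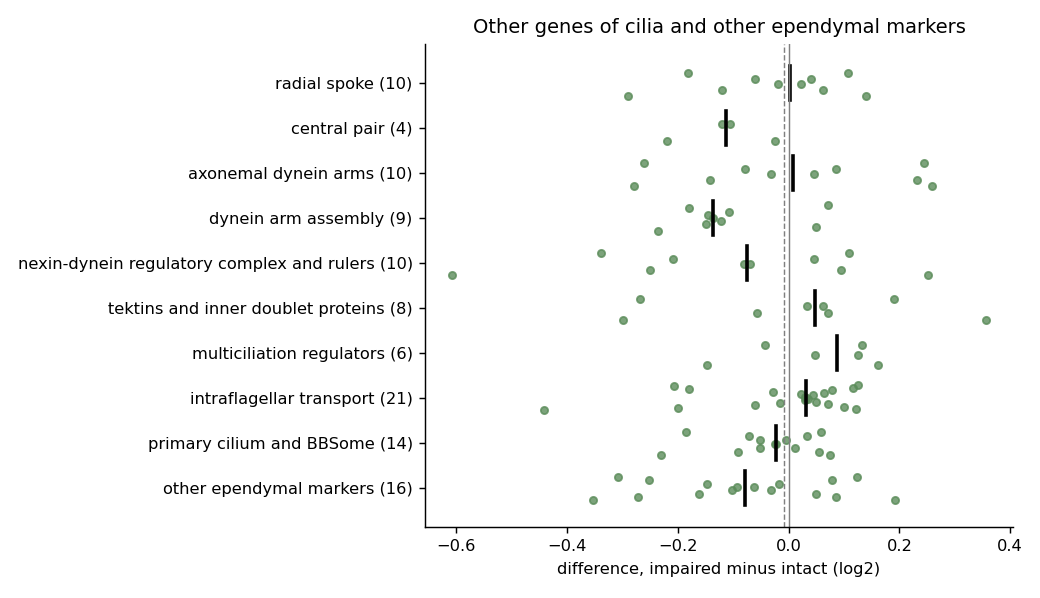
Difference of each other cilia gene and ependymal marker tested, impaired minus intact (log2), by list, with the number of genes tested in brackets. Points are genes, short black bars the list medians, the dashed line the median of all genes tested (-0.0083). The points lie on both sides of 0 in every list but the central pair.

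Ependymal markers beyond the 9 genes were lower in 11 of 16 cases, with a median of -0.078, and none passed the test. The groups did not overlap for 2 of these 16, Sspo and Pltp, both lower in the impaired group, as for 1.46% of all genes tested. They are named after their values were seen. Sspo, the gene of SCO-spondin, which the subcommissural organ secretes, was 6.15, 6.09, 6.15 and 6.04 in the impaired and 6.31, 6.49, 6.26 and 6.37 in the intact mice. That is a difference of -0.25 (standard error 0.080; adjusted p = 0.961 by limma), at a level around that of the intron controls. Pltp, a phospholipid transfer protein that endothelial and other brain cells also make, stood at 10.75, 10.71, 10.71 and 10.80 against 11.09, 11.24, 10.82 and 11.05. Its difference was -0.31 (standard error 0.095; adjusted p = 0.961 by limma).

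Astrocyte markers, which share genes with ependymal cells, differed by a median of 0.0099 over 10 genes, and markers of neural stem cells and neuroblasts by 0.055 over 6. Of 4 tanycyte markers 3 were tested, and these were higher by 0.15 to 0.24. None of these genes passed. Other genes that overlap the loci of the group were Ubash3a at Rsph1, with means of 7.43 and 6.98 in the impaired and intact groups, and Lrrc61 at Rarres2, with 8.22 and 8.19. For Ubash3a the groups did not overlap and the impaired mice were higher, as for 1.12% of all genes tested.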

How the data were processed

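Each of 8 mice gave hippocampal RNA for 1 Affymetrix array, prepared from 1 ng with the WT Pico kit per the labels' protocols. The authors deposited log2 values, which they made with RMA per the submitters' processing notes. Software version and array build: not given in the sources used here. The only coordinates printed are those of the RefSeq promoter windows. RMA compresses differences of dim genes.

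Of 22206 target probe sets, 19572 had 1 gene symbol, 0 several and 2634 none. Where a gene had several probe sets, the brightest was taken. A filter dropped the dimmest 25% of genes by mean, and 14628 genes above 5.33 remained. Differences were fitted with limma 3.58.1 in R 4.3.3 (lmFit, eBayes, two-sided, Benjamini-Hochberg over all genes, threshold 0.05), after the procedure had been tested on simulated data. Python 3.11.15 and scipy 1.17.1 served for the other steps.

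The 9 genes and the lists of other genes were chosen with earlier results of these data known. Older symbols were matched where the platform uses them. Named besides the 9 genes were fixed regulators, paralogs, receptors and plexus genes, the 3 genes of each cilia list with the smallest p and the 6 genes most correlated with the group. Alternatives were other filters, normalizations and priors, the mean of probe sets, the replicate number as a block, plexus markers as a covariate and leaving out mice. No pair of arrays held identical values (0 pairs). The labels call the mice biological replicates, and p-values set the difference of the group means against the spread between mice within the groups. Scan dates were not used here.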

Additional observations from a re-analysis of the deposited data

Results flagged for a closer look

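Within each group of 4 mice, a value was looked at again when its gap to the nearest other mouse took up most of the range of the group. This was done for 130 groups of values, and 12 met it. Chance alone marks about 1 in 20 such groups.

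Of the 9 genes, Cfap126 met it in intact mouse 3, at 6.50 against 7.61 to 7.77 in the other intact mice. In the same mouse Ttr was 10.56, against 13.3 to 13.7. Among the other cilia genes, Cyb5d1 was 7.56 in impaired mouse 1, against 7.79 to 7.83 in the other impaired mice, and Dnah7a was 7.30 in impaired mouse 2, against 6.87 to 6.94. Mns1 was 6.43 in impaired mouse 2, against 5.88 to 5.96. Spag1 was 7.28 in intact mouse 4, with 7.53 to 7.54 in the other intact mice, and Ccno was 5.06 in the same mouse, with 5.36 to 5.40 in the others. Ift43 was 8.02 in intact mouse 2, with 7.71 to 7.76 in the others.

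As mean deviations of lists, the motile cilia genes stood at 0.056 in intact mouse 1, against 0.0055 to 0.011 in the other intact mice. The list of paralogs and chemerin receptors stood at 0.23 in intact mouse 2, against -0.041 to -0.022. Astrocyte markers stood at -0.14 in impaired mouse 1, against 0.052 to 0.079, and markers of neural stem cells and neuroblasts at -0.19 in intact mouse 1, against -0.0016 to 0.024.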

How the results depend on the processing

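Over the alternatives run, the median difference of the 9 genes kept its sign and ran from -0.23 to -0.057, and 7 to 9 of the genes were lower. Rsph9 ran from -0.41 to -0.27. Without each mouse in turn the median of the 9 genes ran from -0.23 to -0.057, their lower count from 7 to 9, the median of the other cilia genes from -0.017 to 0.0022 and the number of genes passing from 0 to 0. When limma's prior followed intensity and was made robust, 1 of all genes passed and 0 of the other cilia genes. With only genes above the 75th percentile of the introns, the median of the other cilia genes was 0.022. The number of other cilia genes with an unadjusted p under 0.05 was 7, and ran from 2 to 10. Of the 6 genes most like the group, 1 had r of 0.9 or more with the group means left in. Mice with the same number did not deviate together over the genes tested (r from -0.10 to 0.033). That cannot settle whether the numbers pair the mice, since a pairing need not show over all genes. With the replicate number as a block, 0 genes passed, the median of the 9 genes was -0.17 and that of the other cilia genes -0.017. The cause of each of these changes was not tested. Signal within the range of the intron controls limits what can be seen of all 9 genes, and most for Rsph1, Rarres2, Tmem212, Mia and Dynlrb2, which were not above their 75th percentile in every mouse.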
